A study of Mus musculus with 12 samples.

Results

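The genes described here encode the subunits of oxidative phosphorylation, the respiratory chain and ATP synthase of the mitochondrial inner membrane. They were chosen by gene symbol from a table of 25861 genes: symbols of the Ndufa, Ndufb, Ndufc, Ndufs and Ndufv series (assembly factors excluded), of the Uqcr, Cox4i, Cox5, Cox6, Cox7, Cox8 and Atp5 series, Sdha to Sdhd, Cyc1, and the 13 protein-coding genes of the mitochondrial genome. Of 108 matching symbols, 100 had a mean of at least 1 CPM (a gene's reads scaled to a common library size, after TMM correction for composition) over 12 libraries. Of these 100 genes, 87 were nuclear and 13 were mitochondrially encoded. By symbol, 49 belonged to complex I, 4 to complex II, 10 to complex III, 16 to complex IV and 21 to ATP synthase (complex V). The symbols also brought in 4 pseudogenes (Ndufb4c, Ndufs5-ps, Ndufs6b and Atp5c1-ps) and the ATP synthase inhibitor gene Atp5if1, so not every row is a subunit.

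RNA was sequenced from tumour organoids grown out of primary mammary tumours. The donor mice were MMTV-Neu, a line where a viral mammary promoter drives the Neu (Erbb2) oncogene in mammary epithelium. The labels call the cells primary epithelial cells with genotype WT and give no animal ages. All organoids received lentivirus at a multiplicity of infection of 20 and puromycin at 3 µg/ml for 3 days, then collagen I for the invasion period of 5 days with 2.5 nM FGF2. The control virus carried a non-targeting hairpin, and the other groups carried 1 of 2 hairpins against Cldn7, a tight junction claudin, here hairpin 1 and hairpin 2. Each of the 3 groups had 4 libraries, numbered 1 to 4 in the titles. Nothing in the labels says that these came from separate animals or cultures, so the p-values measure only the spread between the libraries, which may be technical.

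Electrons from NADH enter the chain at complex I and those from succinate at complex II. They pass through complex III, cytochrome c and complex IV to oxygen, and ATP synthase uses the resulting proton gradient to make ATP. Complexes I, III, IV and V combine subunits from both genomes, whereas complex II is wholly nuclear. The mitochondrial genome is transcribed as long polycistronic RNAs that are cut into shorter messengers, so its genes share their promoters.

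The hairpins lowered their target in every library. Cldn7 stood at 144, 136, 186 and 101 CPM in controls 1 to 4, at 31.1, 30.0, 44.2 and 29.0 CPM with hairpin 1 and at 27.4, 25.4, 34.7 and 26.1 CPM with hairpin 2, with no overlap between hairpin and control libraries. Depth followed the replicate number, with 34988358 to 44645514 counts per library in numbers 1 and 2 and 68581024 to 76329473 in numbers 3 and 4. The 11 luminal and tumour epithelial markers were all above 1 CPM on average and summed to 8107 to 11096 CPM per library. The largest part was Erbb2, the oncogene of this line, at 2582 to 4103 CPM in numbers 1 and 2 and 5217 to 6548 CPM in number 4. Keratins went the other way, with Krt8 at 1086 to 1323 CPM and 603 to 641 CPM, and Krt18 at 1155 to 1305 CPM and 385 to 435 CPM. A steady sum therefore does not show a steady epithelial content. Markers of other cells were present as well. The 7 fibroblast markers summed to 3870 to 8462 CPM in the libraries numbered 4 and to 215 to 2204 CPM elsewhere, and the 5 pericyte markers to 163 to 273 CPM in number 4 and 22.2 to 53.3 CPM elsewhere. The 9 lymphocyte markers summed to 0.0461 to 7.71 CPM, with none above a mean of 1 CPM. The other sums were 759 to 3402 CPM for basal epithelium, 147 to 372 for macrophages and 1.38 to 7.41 for endothelium. Adipocyte markers summed to 0.178 to 6.56 CPM and skeletal muscle markers to 11.7 to 119 CPM. Most of the macrophage sum was Cd14 (126 to 292 CPM). In number 3, Ptprc was at 0 to 0.0765 CPM and Lyz2 at 0.0149 to 0.0255 CPM.

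The replicate number, not the hairpin, separated the libraries in these genes. In numbers 3 and 4 of every group, 6 neighbouring mitochondrial genes (COX2, ATP8, ATP6, COX3, ND3 and ND4L) were near 0, while COX1, ND1, ND2, ND5, ND6 and CYTB on either side were not. COX2, a catalytic subunit of cytochrome c oxidase, is typical: the libraries numbered 1 and 2 had 4635 and 3542 CPM in the control, 4638 and 3512 CPM with hairpin 1 and 3913 and 3446 CPM with hairpin 2. Numbers 3 and 4 had 4.07 and 1.93 CPM, 3.18 and 2.82 CPM, and 2.86 and 1.89 CPM in the same order. The 6 libraries of numbers 1 and 2 thus all lay far above the 6 of numbers 3 and 4.

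The 6 genes form a continuous stretch of the mitochondrial genome, from position 7013 (the start of COX2) to 10173 (the end of ND4L) on GRCm38, the mm10 assembly. The nuclear genome holds copies of genes of this stretch on the minus strand of chromosome 1. They are annotated in GENCODE M21 as pseudogenes from 24611535 to 24616197, and no copy of ATP8 was among those aligned. The copies of COX2 (Gm28661), ATP6 (Gm10925), COX3 (Gm28437), ND3 (Gm28438), ND4L (Gm10222) and the first part of ND4 (Gm28439) aligned at 100% identity over 294 to 876 bases, and 1 mismatch in 483 bases separated COX1 from its partial copy Gm29216 (99.8% identity). The following pairs are shown because they are what a short read from either place would contain. They are 120 bases from GENCODE M21 transcripts, 5′ to 3′ on the gene's strand, for COX2 at chrM:7013-7132 (+), Gm28661 at chr1:24615446-24615565 (-), COX1 at chrM:6390-6509 (+) and Gm29216 at chr1:24616069-24616188 (-), and a capital marks the base at which a pair differs.
COX2: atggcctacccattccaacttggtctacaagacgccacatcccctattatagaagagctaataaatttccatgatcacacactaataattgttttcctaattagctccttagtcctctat
Gm28661: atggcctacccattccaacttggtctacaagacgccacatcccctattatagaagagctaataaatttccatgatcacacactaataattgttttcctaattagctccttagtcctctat
COX1: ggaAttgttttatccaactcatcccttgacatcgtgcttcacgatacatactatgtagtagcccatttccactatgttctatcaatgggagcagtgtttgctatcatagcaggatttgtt
Gm29216: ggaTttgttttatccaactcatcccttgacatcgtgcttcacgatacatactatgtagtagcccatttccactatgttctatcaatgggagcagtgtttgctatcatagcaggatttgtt
The COX2 pair has no capital, so a read from this window fits both places equally well.

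Genes at the ends of this stretch were lower in part, as were some mitochondrial genes outside it. COX1, the largest catalytic subunit of complex IV, has its end copied on chromosome 1. It shared sequence with transcripts of 3 other genes, including this copy. COX1 had 5818 to 11264 CPM in numbers 3 and 4 and 11594 to 13969.9 CPM in numbers 1 and 2. ND4, a membrane subunit of complex I with its first part copied, stood at 3647, 3159, 1530.0 and 803 CPM in controls 1 to 4, 3698, 2849, 1322 and 1073 CPM with hairpin 1, and 2921, 3077, 1008 and 710.0 CPM with hairpin 2. Its mean in numbers 3 and 4 was 33.3% of that in numbers 1 and 2, between the 0.0721% of ND4L before it and the 86.6% of ND5 after it. CYTB, the mitochondrial subunit of complex III, was at 107%. COX1 was at 65.8%, but so low a value was not confined to the ends of the stretch. Outside it, ND6 was at 59.2%, ND2 at 65.2% and ND1 at 76.6%.

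**Figure D1:**
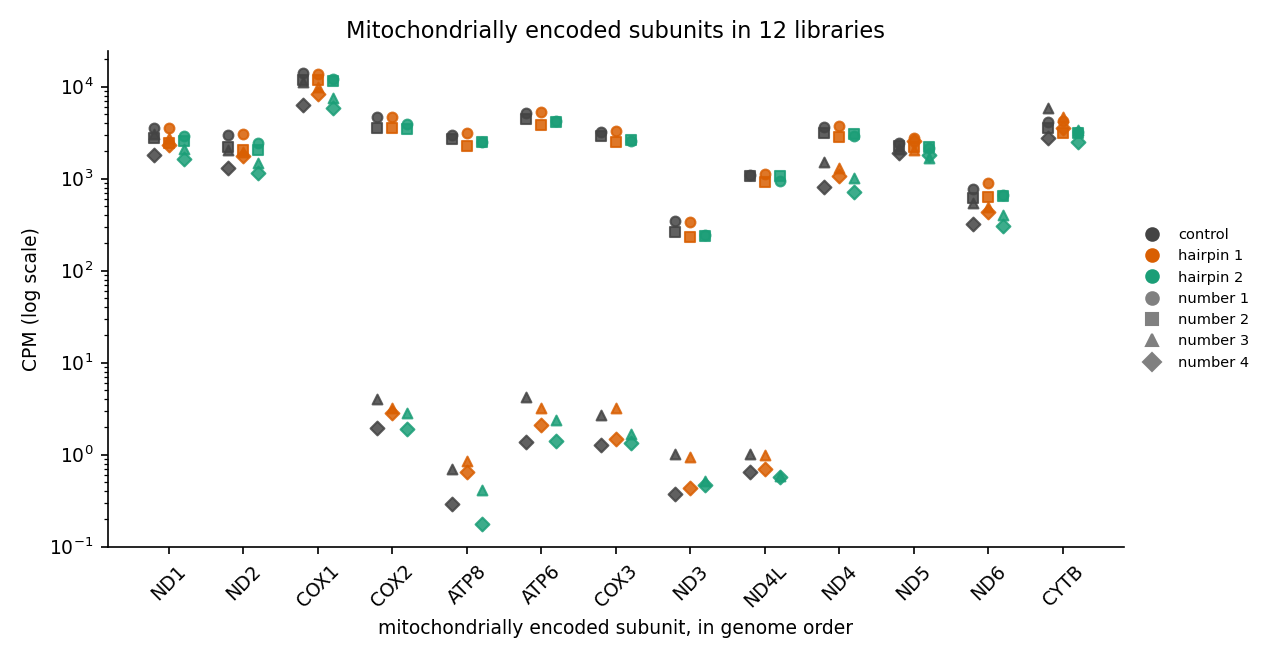
CPM on a log axis for the 13 mitochondrially encoded subunits in genome order, 1 point per library, with colour for the group and shape for the replicate number. From COX2 to ND4L the points of numbers 3 and 4 lie between 0.174 and 4.25 CPM, far under those of numbers 1 and 2.

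ATP8, a small membrane subunit of ATP synthase, showed the widest range between numbers of all members. It had 2949.8, 2691, 0.691 and 0.288 CPM in controls 1 to 4, 3097, 2277, 0.862 and 0.640 CPM with hairpin 1, and 2518, 2530.0, 0.408 and 0.174 CPM with hairpin 2. No full window of 50 bases from ATP8, which lies between COX2 and ATP6, occurred in an annotated transcript of another gene. Shorter matches, as in the end that overlaps ATP6, were not counted. On chromosome 1 the annotation of Gm10925 ends at 24614651 and that of Gm28661 starts at 24614885, and the bases between them were not analysed here. ATP8 overlaps ATP6, and ND4L overlaps ND4, so reads in the overlaps cannot be assigned to 1 gene of the pair.

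Several nuclear subunits behaved in the same way. Uqcr11, a small subunit of complex III, had 44.0 and 36.9 CPM in controls 1 and 2, 51.4 and 38.1 CPM with hairpin 1 and 35.3 and 37.2 CPM with hairpin 2, but only 3 counts in all over the 6 libraries of numbers 3 and 4, against 8871 counts over the other 6. Sdhd, a membrane anchor of complex II, had 88.0 to 105 CPM in numbers 1 and 2 and 0.491 to 0.807 CPM in numbers 3 and 4. Cox7a2, the widely expressed isoform of a small complex IV subunit, went from 47.1 to 66.0 CPM to 0.589 to 0.967 CPM. Ndufa8 had 71.7 to 89.8 CPM and 5.70 to 10.7 CPM, and Ndufa6 had 61.2 to 71.7 CPM and 11.8 to 17.2 CPM. In none of these 5 genes did the libraries of numbers 3 and 4 overlap those of numbers 1 and 2.

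In all, 20 of the 100 members (7 mitochondrial, 13 nuclear) had a mean in numbers 3 and 4 under 50% of that in numbers 1 and 2, against 15.0% of 17025 genes tested. The other nuclear ones were Ndufb4, Ndufb4b, Ndufb4c, Ndufs5 and Ndufab1 of complex I, Cox7c of complex IV, and Atp5mc2 and Atp5mg of ATP synthase. In 25 members all 6 libraries of numbers 3 and 4 lay below all 6 of numbers 1 and 2 (background 14.3%), and in 2, Ndufa4l2 and Sdha, they lay above (background 3.88%). The other 80 members were at 57.9% or more, with a median of 100.1%.

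Shared sequence was measured as the share of a transcript's 50-base windows that also occur in a transcript of another locus, and 98 members had a sequence for this. All 6 members with over 90% shared windows fell under 50% in numbers 3 and 4, as did 4 of 6 with over 50 to 90% and 4 of 17 with over 10 to 50%. None of 19 with over 0 to 10% did, and 5 of 50 with no shared window did. Over all genes tested these shares were 88.7%, 70.0%, 35.4%, 10.4% and 10.5% in the same order of classes, and no test of a difference was run. Of the 20 low members, 14 had a shared window and 1 (Ndufb4b) had no sequence. The remaining 5 were ATP8, Sdhd, Cox7a2, Ndufa8 and Ndufa6, in which no window was shared. The sources used here do not say how reads that fit several places were counted, and its part in the difference between numbers was not tested.

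**Figure D2:**
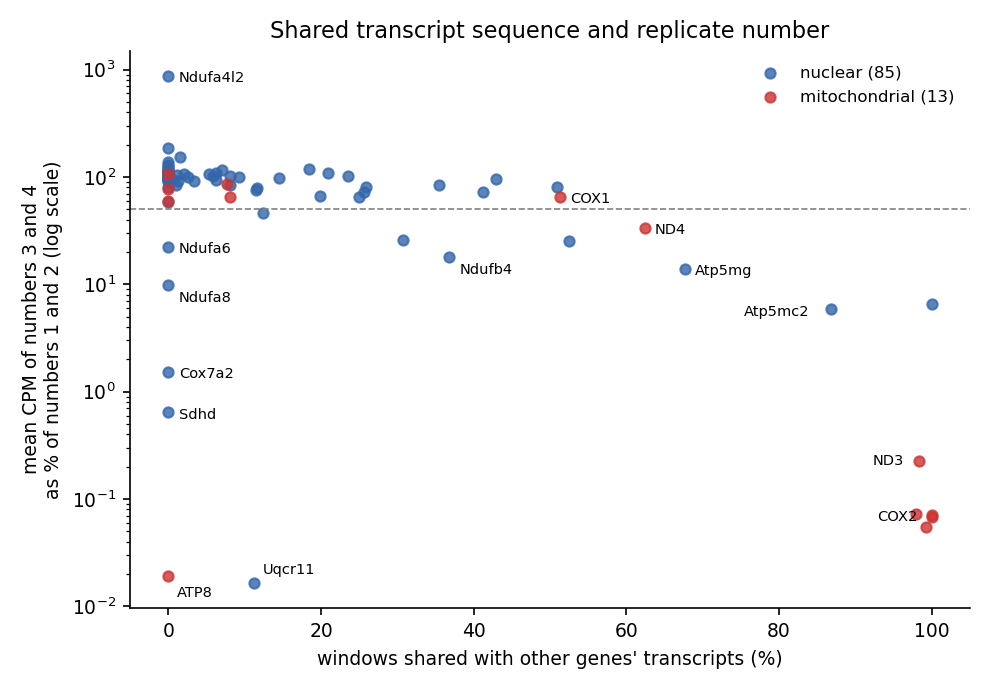
For 98 members, the share of windows shared with other genes' transcripts (x axis, %) against the mean of numbers 3 and 4 as a percentage of numbers 1 and 2 (y axis, log scale), with the dashed line at 50%. All 6 members with over 90% shared windows are low, and Sdhd, Cox7a2, Ndufa8, Ndufa6 and ATP8 are low with no shared window.

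An F test over the 4 numbers, with the group in the model, called 97 of 100 members (edgeR quasi-likelihood, Benjamini-Hochberg adjusted p under 0.05), beside 76.3% of all genes tested. The exceptions were ND5 (adjusted p = 0.0625), Ndufa1 (0.0661) and Ndufa3 (0.0852), all of complex I. The smallest ranges between the numbers' mean log2 CPM were those of Sdhb (0.28), the iron-sulphur subunit of complex II, Ndufs1 (0.29), an iron-sulphur subunit of complex I, and ND5 (0.33), while ATP8, ATP6, COX3, COX2 and ND4L had ranges from 10.6 to 13.0. Sdhb stood at 86.0, 88.4, 116 and 79.8 CPM in controls 1 to 4, so that even here number 3 was the highest.

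Nuclear members also differed between numbers 3 and 4. Together the 87 nuclear genes took 0.815 to 0.973% of all counts in the libraries numbered 3 and 0.610 to 0.639% in those numbered 4, with 0.763 to 0.834% in those numbered 1 and 2. All 3 libraries of number 4 were below the other 9, and the highest was control 3. Atp5f1b, the catalytic beta subunit of ATP synthase, stood at 1009.7, 962, 1467 and 735 CPM in controls 1 to 4, 969.9, 938, 1305 and 766 CPM with hairpin 1, and 956, 972, 1074 and 759 CPM with hairpin 2. The number 4 libraries are those with the highest fibroblast and pericyte marker sums, and the part of these cells in the lower share was not tested. In bulk RNA, fewer cells of a type and less RNA per cell cannot be told apart. The 13 mitochondrial genes took 3.84 to 4.76% of counts in numbers 1 and 2 and 1.47 to 2.49% in numbers 3 and 4. Without the 6 genes near 0 in numbers 3 and 4, the other 7 took 2.51 to 3.05% and 1.47 to 2.49%.

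**Figure D3:**
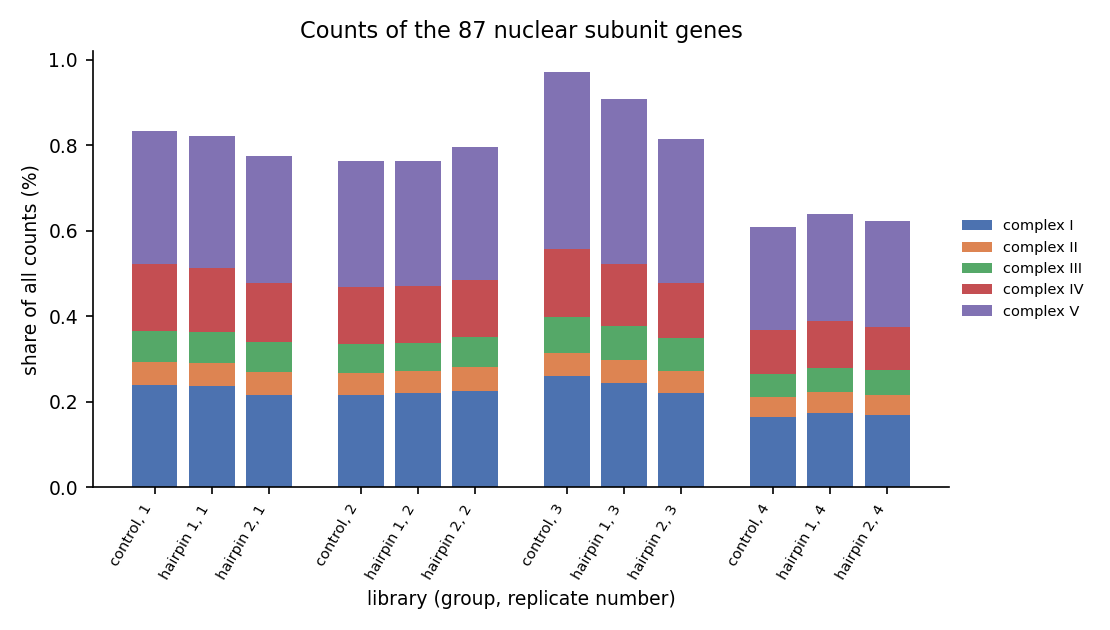
Stacked bars of the share of all counts (%) taken by the nuclear subunit genes of each complex, 1 bar per library, grouped by replicate number. The bars of number 4 end between 0.610 and 0.639%, below all others.

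Levels of different genes can be compared only per transcript length, and numbers 1 and 2 are used here because all 13 mitochondrial genes are measured there. In CPM per kilobase, mitochondrial subunits were far above nuclear ones. The 7 mitochondrial genes of complex I had a median level of 2341 CPM per kilobase and its 40 nuclear genes with a known transcript length 62.3. The 3 mitochondrial genes of complex IV had 5771 and its nuclear genes 98.2, and ATP6 and ATP8 had 6635 and 13123 against a nuclear median of 109.7 in complex V. CYTB had 3121 beside a nuclear median of 78.5 in complex III. The nuclear genes of complex II, which has no mitochondrial subunit, had 75.6.

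Within each complex a few nuclear genes led. By mean CPM per kilobase over all 12 libraries, the 2 highest with a complex I symbol were Ndufa4 (238.8) and Ndufb11 (118.3). Ndufa4 is counted in complex I by its symbol only, since its protein is found in complex IV. Sdha (95.9), the flavoprotein of complex II, and Sdhb (78.7) were above Sdhc (32.9), a membrane anchor. In complex III, Uqcrh (122.9), the hinge protein, and the core subunit Uqcrc2 (89.6) led and Uqcrq (38.8) was the lowest. Cox4i1 (509.6) and Cox6a1 (461.3) led complex IV, and the beta and alpha subunits of the ATP synthase head, Atp5f1b (518.2) and Atp5f1a (297.9), led complex V. In numbers 1 and 2 alone some of these orders changed, since members near 0 in numbers 3 and 4 are then higher. There Ndufc2 (120.3) was above Ndufb11 (118.0), Sdhd (75.98) above Sdhb (75.2), Uqcr11 (91.0) above Uqcrc2 (87.5) and Cox6a1 (525) above Cox4i1 (497).

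Tissue-specific isoforms of complex IV were low beside their widely expressed partners. Per kilobase and over 12 libraries, Cox4i2, the isoform known from lung, made up 0.0131 to 0.222% of the Cox4i1 and Cox4i2 sum, and Cox6a2, the heart and muscle isoform, 0.0141 to 0.171% of the Cox6a pair. Cox6b2, the testis isoform, made up 0.263 to 4.39% of the Cox6b pair, with the highest share in hairpin 2 number 4. Cox8b made up 0.0443 to 0.670% beside Cox8a, and Cox7b2 at most 0.0933% beside Cox7b. Cox7a1, the heart and muscle isoform, made up 5.04 to 19.7% of its sum with Cox7a2l, whereas its share with Cox7a2 ran from 6.89 to 10.8% in numbers 1 and 2 and reached 92.9% in control 3, where Cox7a2 itself is near 0. Of the 3 genes for the same ring subunit of ATP synthase, Atp5mc3 had 240.7 CPM per kilobase in numbers 1 and 2, Atp5mc2 93.7 and Atp5mc1 5.57, the last over an annotated transcript of 4715 bases. Cox5a and Cox5b, which sit in the same complex and are not isoforms of each other, had 89.1 and 121.2.

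With the minimum applied to the control mean, 99 members would be kept in place of 100, without Cox6b2. The members just inside it were Cox6b2, Ndufs6b and Atp5c1-ps, with group means of 0.642 to 2.47 CPM, and those just outside were Uqcrh-ps1, Cox4i2 and Cox8b, with group means of 0.179 to 0.690 CPM. The remaining 5 that were left out were Cox8c, Cox7b2, Ndufb11b, Cox6a2 and Ndufa11b. All 100 members kept passed the filter for low counts and were tested.

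The main comparison asked whether lowering Cldn7 changed these genes. No member passed the threshold in edgeR for both hairpins together, in any of the 5 complexes. In the model with the group alone 0 of 100 members were called for both hairpins together, for each hairpin, or between the hairpins, and 0 had an unadjusted edgeR p under 0.05. That model called 0.00587% of all genes tested in each of these comparisons. With the replicate number in the model, edgeR called 0 members for both hairpins (background 1.79%; 7 members with unadjusted p under 0.05) and DESeq2 called 1, Cox4i1 (background 7.78%). For hairpin 1 both tools called 0 (backgrounds 0.728% in edgeR and 4.22% in DESeq2; 2 members with unadjusted edgeR p under 0.05). For hairpin 2 edgeR called 2, Cox6b2 and Cox4i1 (background 5.76%; 23 members with unadjusted p under 0.05). Both the 1 call up and the 1 call down were below the background shares of 2.83% and 2.93%. DESeq2 called 4 for hairpin 2, Cox6b2, Cox4i1, Ndufa4l2 and CYTB (background 12.1%).

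Cox4i1, the main isoform of a regulatory subunit of complex IV, fell with hairpin 2 in the model with the replicate number. It had 459, 362, 542 and 347 CPM in controls 1 to 4, 421, 345, 437 and 358 CPM with hairpin 1, and 375, 321, 396 and 316 CPM with hairpin 2. The groups overlapped, but hairpin 2 was below the control of the same number in 4 of 4 pairs. Its log2 difference was -0.26 (SE 0.064; edgeR adjusted p = 0.0394 with the replicate number, 1.00 without), a level of 83.2% of control. For hairpin 1 the difference was -0.12 (SE 0.064; edgeR adjusted p = 0.498 with the replicate number), lower in 3 of 4 pairs.

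Cox6b2 rose with hairpin 2 in the same model, from a level under the CPM minimum. It met the minimum of 1 CPM only through hairpin 2, the group where it is high, so its place among the members and the calls is not independent of that difference. It had 0.374, 0.478, 0.399 and 1.32 CPM in controls 1 to 4 (13, 17, 26 and 96 counts), 0.981, 0.344, 0.342 and 1.98 CPM with hairpin 1, and 1.74, 0.666, 0.880 and 3.68 CPM with hairpin 2 (64, 30, 69 and 274 counts). Hairpin 2 exceeded the control in 4 of 4 pairs and hairpin 1 in 2 of 4, and number 4 was the highest library of each group. The log2 difference of hairpin 2 was 1.31 (SE 0.32; edgeR adjusted p = 0.0390 with the replicate number, 1.00 without). The fibroblast marker sum was higher with hairpin 2 than in the control in numbers 1 (1458 and 2204 CPM), 3 (215 and 498 CPM) and 4 (3870 and 8462 CPM) and lower in number 2 (1059 and 682 CPM), and its part was not tested. Cox6b1, the paralogue, had group means of 112 ± 29.7, 108 ± 22.9 and 99.3 ± 10.7 CPM (SD, n = 4) for control, hairpin 1 and hairpin 2.

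Most fits without 1 library lost these calls. Leaving out 1 library at a time in the model with the replicate number, Cox6b2 was called only without control replicate 2 or hairpin 2 replicate 2, and Cox4i1 only without control replicate 4 (edgeR adjusted p from 0.0260 to 0.123 and from 0.0388 to 0.124 over 12 libraries). The directions held in all 12.

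Ndufa4l2, a paralogue of Ndufa4 known as a hypoxia-induced gene and a pericyte marker, had the highest fold for hairpin 2 and did not pass the threshold in edgeR with all libraries and the filter on low counts. Its levels were 0.633, 0.0843, 3.01 and 1.23 CPM in controls 1 to 4, 0.476, 0.745, 3.13 and 1.55 CPM with hairpin 1, and 0.871, 0.444, 16.1 and 3.26 CPM with hairpin 2. A single library, hairpin 2 number 3, stood above the other 11, and hairpin 2 was higher than control in 4 of 4 pairs. The log2 difference was 1.60 (SE 0.47; edgeR adjusted p = 0.0768 with the replicate number, and 0.0121 in DESeq2). In the same model edgeR called it with no filter (adjusted p = 0.0475), with numbers 3 and 4 only (0.0495) and without hairpin 1 replicate 2 (0.0323). The 5 pericyte markers summed to 35.96, 22.2, 23.3 and 163 CPM in controls 1 to 4. With hairpin 2 they summed to 53.3, 25.8, 45.7 and 273 CPM, higher in 4 of 4 pairs as Ndufa4l2 was. In every group the sum was higher in number 4 than in number 3, whereas Ndufa4l2 was lower. Most of the sum in number 4 was 1 marker, Pdgfrb, which with hairpin 2 had 19.9 CPM in number 3 and 218 CPM in number 4. Cspg4, Abcc9 and Rgs5 were also higher in number 4 in every group. Kcnj8 was higher there in the control and with hairpin 1, but with hairpin 2 it had 4.83 CPM in number 3 and 3.79 CPM in number 4. The part of pericytes in the difference of Ndufa4l2 was not tested. Cox4i2, also at its highest in hairpin 2 number 3, had 0.842 CPM.

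**Figure D4:**
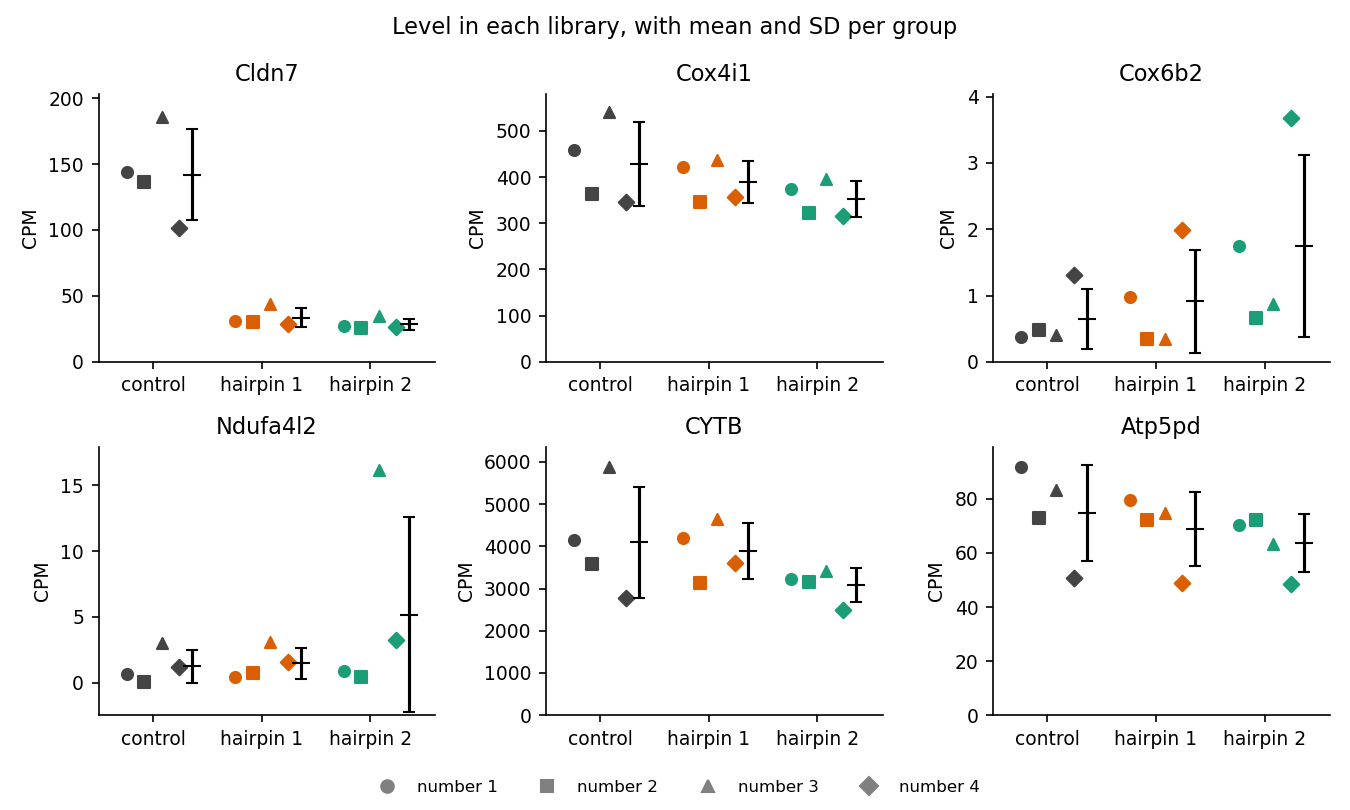
CPM of Cldn7 and 5 subunit genes in each library, with shape for the replicate number and the mean and SD (n = 4) at the right of each group. Cldn7 separates the control from both hairpins, whereas Cox4i1, CYTB and Atp5pd overlap between control and hairpins, and Ndufa4l2 is set apart by 1 hairpin 2 library at 16.1 CPM.

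Small differences below the threshold leaned downward with hairpin 2. With the replicate number in the model, 93 of 100 members had a negative log2 difference and their median was -0.13, where all genes tested had 49.2% below 0 and a median of 0.0044. The medians were -0.14 for complex I, -0.045 for complex II, -0.089 for complex III, -0.14 for complex IV and -0.12 for complex V. All 13 mitochondrial genes were below 0, with a median of -0.27. For hairpin 1 the median was 0.00018 and 50 of 100 members were below 0. Both comparisons use the same 4 controls.

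The downward lean was not seen in every pair of libraries. By number, the median log2 difference of the members between hairpin 2 and control was -0.22, 0.034, -0.43 and 0.060 in pairs 1 to 4, and between hairpin 1 and control -0.017, 0.0058, -0.16 and 0.16. Pairs 1 and 3 carried it for hairpin 2, and control 3 was the library with the highest nuclear share. Without control replicate 3 the hairpin 2 median was -0.065, and without hairpin 2 replicate 3 it was -0.067. Marker sums of cell types also differed between control and hairpin 2, in pairs with the lean and in pairs without it. Basal markers went from 1579 to 2260 CPM between control and hairpin 2 in pair 1, from 3402 to 2820 CPM in pair 2, from 759 to 2226 CPM in pair 3 and from 777 to 1670 CPM in pair 4. Fibroblast markers were higher with hairpin 2 in pairs 1, 3 and 4 and lower in pair 2, as given for Cox6b2. Luminal markers rose from 8107 to 8432 CPM in pair 1 and from 8987 to 9375 CPM in pair 2. They fell from 11096 to 9308 CPM in pair 3 and from 9874 to 8795 CPM in pair 4. Erbb2 alone, the largest part of the luminal sum, went from 2960 to 3208 CPM in pair 1 and from 3569 to 4103 CPM in pair 2. It went from 5269 to 4264 CPM in pair 3 and from 6548 to 5734 CPM in pair 4, so the sum depends largely on this oncogene. The part of these cell types in the lean was not tested. Hairpin 2 was lower in 4 of 4 pairs for 17 members (background 12.8%) and higher in 4 of 4 for 2 (background 12.5%). With hairpin 1, 2 members were lower and 1 was higher in 4 of 4 pairs (backgrounds 12.6% and 11.6%).

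**Figure D5:**
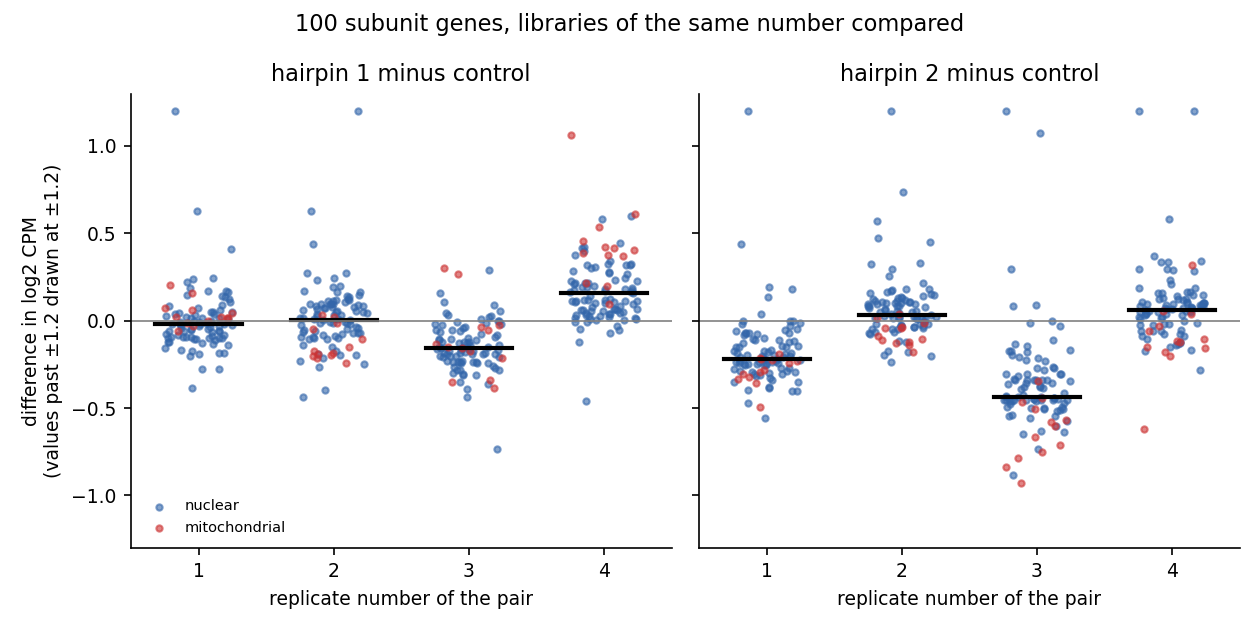
Difference in log2 CPM between each hairpin library and the control of the same number, 1 point per member, with black bars for the medians and points past the axis limits drawn at its edge. For hairpin 2 the bars are at -0.22 and -0.43 in pairs 1 and 3 and just above 0 in pairs 2 and 4.

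CYTB had the most negative hairpin 2 difference of the 13 mitochondrial genes. It had 4139, 3573, 5886 and 2787 CPM in controls 1 to 4, 4189.6, 3128, 4648 and 3595 CPM with hairpin 1, and 3234, 3159, 3411 and 2499 CPM with hairpin 2, with a log2 difference for hairpin 2 of -0.37 (SE 0.12; edgeR adjusted p = 0.106 with the replicate number). ND2, a complex I subunit, had group means of 2141 ± 689, 2218 ± 592 and 1780.0 ± 581 CPM (SD, n = 4). ND1 had 2809.6 ± 761, 2771 ± 557 and 2302 ± 556 CPM, and ND6, the only one of the 13 encoded on the other strand, had 567 ± 192, 617 ± 205 and 504 ± 177 CPM. For hairpin 1, ND5 and ND6 had the smallest p among members with a positive difference, at 0.12 (SE 0.090) and 0.14 (SE 0.10) on the log2 scale (edgeR adjusted p = 0.625 and 0.636 with the replicate number). Neither differed by more than the spread between libraries.

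Across both hairpins, 2 members were below the control in 8 of 8 pairs (background 4.31%), and 0 were above in 8 of 8 (background 3.69%). Uqcrfs1, the Rieske iron-sulphur subunit of complex III, had 102, 92.6, 138 and 73.1 CPM in controls 1 to 4, 98.4, 70.2, 119 and 71.6 CPM with hairpin 1, and 97.3, 78.5, 109 and 71.9 CPM with hairpin 2. Its log2 difference for both hairpins was -0.17 (SE 0.060; edgeR adjusted p = 0.168 with the replicate number). Atp5pd, in the peripheral stalk of ATP synthase, had 91.7, 73.0, 83.2 and 50.6 CPM, then 79.6, 72.3, 75.0 and 49.0 CPM, and 70.3, 72.1, 63.4 and 48.5 CPM in the same order. Its difference was -0.16 (SE 0.060; edgeR adjusted p = 0.202 with the replicate number). Differences of single pairs were as small as -0.014, and the groups overlapped in both genes.

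Other members named by p for both hairpins or hairpin 1 were close to the control. Cyc1, cytochrome c1 of complex III, had group means of 75.1 ± 13.2, 78.0 ± 10.6 and 77.2 ± 11.8 CPM (SD, n = 4) for control, hairpin 1 and hairpin 2. Uqcrh differed by -0.14 (SE 0.067) on the log2 scale with hairpin 1 (edgeR adjusted p = 0.430 with the replicate number). Atp5f1e, the epsilon subunit of ATP synthase, differed by 0.14 (SE 0.11; edgeR adjusted p = 0.663).

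Between the hairpins, edgeR called 0 members in either model (background 3.44% with the replicate number; 24 members with unadjusted p under 0.05, 0 without the number). Ndufa10, an accessory subunit of complex I, had group means of 73.7 ± 13.1 CPM with hairpin 1 and 60.3 ± 7.08 CPM with hairpin 2 (SD, n = 4), a log2 difference of -0.28 (SE 0.075; edgeR adjusted p = 0.0751 with the replicate number). ND2 differed by -0.35 (SE 0.10; 0.0921) and Ndufb7, another accessory subunit of complex I, by -0.23 (SE 0.070; edgeR adjusted p = 0.105). Ndufa4l2 (1.08, SE 0.47) was also named by its p and did not pass. DESeq2 with the replicate number called 7 (background 9.76%): Cox6b2 higher, and CYTB, ND2, ND5, ND6, Ndufa10 and Ndufb7 lower with hairpin 2.

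Genes that build, supply or regulate the complexes were examined as lists in the edgeR model that includes the number. That model called 1.79% of all genes tested for both hairpins, 0.728% for hairpin 1, 5.76% for hairpin 2 and 3.44% between the hairpins. Of 16 complex I assembly factors tested, 0 passed in any of the 4 comparisons, and Timmdc1 had 19.6 ± 2.14, 23.9 ± 1.64 and 21.5 ± 0.915 CPM (SD, n = 4) and Nubpl 9.20 ± 2.24, 7.90 ± 1.55 and 7.84 ± 0.801 CPM in control, hairpin 1 and hairpin 2. Of 39 assembly factors of complexes II to V, 1 passed, Ttc19, higher with hairpin 2 than with hairpin 1 (log2 difference 0.28, SE 0.065; edgeR adjusted p = 0.0439). Uqcc3 and Surf1, which had the smallest p for both hairpins, differed by -0.20 (SE 0.055) and -0.13 (SE 0.043), with edgeR adjusted p = 0.0954 and 0.155. Of 14 nuclear regulators tested 0 passed, with Ppard at 0.12 (SE 0.055) and Pprc1 at 0.14 (SE 0.079) for both hairpins.

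Tfb2m, a factor that starts transcription of the mitochondrial genome, fell with hairpin 2 in this model. Its means were 22.8 ± 5.27, 23.0 ± 4.87 and 15.8 ± 3.49 CPM (SD, n = 4), with a log2 difference of -0.53 (SE 0.063; edgeR adjusted p = 0.00265) against the control and -0.55 (SE 0.063; edgeR adjusted p = 0.00208) against hairpin 1. Over both hairpins it was -0.25 (SE 0.054; edgeR adjusted p = 0.0457). It was the only 1 of 21 tested genes of mitochondrial DNA maintenance and transcription that passed in these 3 comparisons. The backgrounds over all genes were 5.76%, 3.44% and 1.79% in the same order, so 1 call in a list of this size is not a result about the list. Slirp, the next by p, differed by -0.13 (SE 0.057) over both hairpins.

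Ucp2, an inner membrane carrier, rose in the average of both hairpins (log2 difference 0.30, SE 0.064; edgeR adjusted p = 0.0482) and with hairpin 1 (0.44, SE 0.073; edgeR adjusted p = 0.0284). It did not pass for hairpin 2 against control, and hairpin 2 stood below hairpin 1 (-0.28, SE 0.073; edgeR adjusted p = 0.0699). It was the only 1 of 14 electron and nucleotide carriers tested that passed (backgrounds 1.79% and 0.728%). It had 402 ± 72.2, 544 ± 102.5 and 453 ± 107.3 CPM (SD, n = 4) in control, hairpin 1 and hairpin 2. Of 18 genes of the tricarboxylic acid cycle and 78 of the mitochondrial ribosome, 0 passed in any comparison (backgrounds 0.728% to 5.76%). Their medians for hairpin 2 against control were -0.055 and -0.091, with 14 of 18 and 64 of 78 below 0. Idh3g and Pdhb had the smallest p for both hairpins in the first list, at -0.11 (SE 0.056) and -0.11 (SE 0.065), and Mrpl51 and Mrps24 in the second, at -0.14 (SE 0.052) and -0.21 (SE 0.077). In the model with the group alone, 0 genes of any of these lists passed in edgeR (background 0.00587% in each comparison).

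Promoters of respiratory genes are known for binding sites of NRF1 and of ETS factors such as GABP, and the RefSeq promoter table of GRCm38.p6 (250 bases before to 50 after the start) held 69 of the 87 nuclear members. The NRF1 palindrome, searched on both strands, was in 18 of them (26.1%) and in 5.19% of 27025 genes. The ETS motif CCGGAAG was in 17 (24.6%, against 9.93%), and the GC box GGGCGGGG in 13 (18.8%, against 19.6%). The second share in each case is over all genes with a listed promoter, expressed here or not, whereas the members were kept by expression. Motif hits are matches of letters, not measured binding. Cox6a1, among the highest members per length, and the pair Cox6b1 and Cox6b2, of which Cox6b2 was called for hairpin 2, are shown for comparison, with motif matches in capitals. They lie at chr5:115348909-115349208 (-), chr7:30626065-30626364 (-) and chr7:4753045-4753344 (-).
Cox6a1: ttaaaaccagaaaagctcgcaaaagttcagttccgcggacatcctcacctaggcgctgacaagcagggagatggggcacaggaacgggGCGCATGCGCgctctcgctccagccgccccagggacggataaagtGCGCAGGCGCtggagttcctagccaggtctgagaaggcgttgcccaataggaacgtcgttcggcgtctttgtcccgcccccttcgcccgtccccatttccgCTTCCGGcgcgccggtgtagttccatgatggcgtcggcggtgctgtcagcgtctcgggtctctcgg
Cox6b1: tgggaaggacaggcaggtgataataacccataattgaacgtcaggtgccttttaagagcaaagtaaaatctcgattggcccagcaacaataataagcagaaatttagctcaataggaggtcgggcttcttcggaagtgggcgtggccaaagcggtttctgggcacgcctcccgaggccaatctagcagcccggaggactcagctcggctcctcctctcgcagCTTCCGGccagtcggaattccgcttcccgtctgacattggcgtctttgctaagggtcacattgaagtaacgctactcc
Cox6b2: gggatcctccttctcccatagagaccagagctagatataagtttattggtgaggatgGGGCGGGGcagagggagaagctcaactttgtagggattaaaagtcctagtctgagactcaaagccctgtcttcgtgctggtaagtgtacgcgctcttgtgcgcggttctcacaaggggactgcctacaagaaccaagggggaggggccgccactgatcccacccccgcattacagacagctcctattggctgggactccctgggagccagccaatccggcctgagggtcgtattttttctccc
The Cox6a1 window holds NRF1 matches that begin at -162 and -117 from the start and an ETS match at -16, Cox6b1 holds an ETS match at -28, and Cox6b2 holds a GC box at -193. Of the 69 members, 4 held both an NRF1 and an ETS match (Atp5me, Atp5pd, Cox6a1 and Sdhd). Neither motif was found in the Cox6b2 window.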

How the data were processed

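RNA selected with oligo-dT was sequenced in 12 libraries, 4 in each of 3 groups. The authors deposited a table of unnormalised counts, 1 per gene and library. Per the submitters' processing notes, FastQC 0.74, Trimmomatic 0.39, DESeq2 1.34.0 and mm10 were used. The sources used here do not name the aligner, annotation, strand setting or treatment of reads that fit several places.

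Groups and replicate numbers came from the sample titles. Genes with low counts were removed with filterByExpr, which left 17025, and libraries were scaled by TMM in edgeR 4.0.16 (R 4.3.3). Each comparison was tested over all genes with the quasi-likelihood test and Benjamini-Hochberg adjustment, with the group alone in the main model and the replicate number added in the other. Libraries of the same number deviated together from their group means (correlations 0.855 to 0.916, others -0.807 to 0.727, and 12 of 12 libraries closest to their own number), so the values with the number are printed beside the main ones. DESeq2 1.42.0 was an alternative, as were other scalings, no filter, single libraries left out and subsets of numbers. The log2 CPM used a prior count of 2, and the scripts were tested on simulated data.

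Coordinates, transcript lengths and shared windows (50 bases, every 5 bases) came from GENCODE M21, in which 106 of 108 symbols were found, by older symbols where needed, and promoters came from RefSeq. Genes were named by rule: all mitochondrial members, called members or else the 3 of smallest p in each direction, the extremes of range and level, paralogue sets, members next to the CPM minimum, and the 2 of smallest p in each pathway list. Uqcr11, Sdhd, Cox7a2, Ndufa8, Ndufa6 and the other nuclear members low in numbers 3 and 4 were named after their values were seen. The single values of 1 member that the rule names are not reported here. The members and lists were chosen with earlier results of these data known.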

Additional observations from a re-analysis of the deposited data

Results flagged for a closer look

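Of 138 groups of 4 libraries examined for 46 named genes, 3 held a library that stood apart by Dixon's criterion, where chance alone flags about 1 in 20 groups. All 3 were libraries numbered 4. Cox6b2 in control replicate 4 had 1.32 CPM, against 0.374 to 0.478 CPM in the other controls. Cox7b, a small subunit of complex IV, had 50.1 CPM in hairpin 2 replicate 4, against 68.4 to 69.5 CPM in the other hairpin 2 libraries. Cox8a, another small subunit of complex IV, had 100.4 CPM there, against 128 to 133 CPM in the others.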

How the results depend on the processing

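Each comparison of groups was recomputed under 37 alternatives and the effect of the number under 16. The count of members called for the replicate number stayed between 95 and 99 without single libraries. For both hairpins, hairpin 1 and the hairpins against each other, edgeR called 0 members in the main model and 0 with the replicate block. For hairpin 2 against control the block gave 2 members where the group alone gave 0. With the block, that count was 2 with DESeq2 size factors, 2 with mitochondrial genes out of the scaling, 3 with no filter, 4 in DESeq2, 1 with numbers 3 and 4 only, 0 with only the compared groups in the fit, 0 with numbers 1 and 2 only, and 0 to 3 without single libraries. Over 7 such settings other than single libraries, Cox6b2 and Cox4i1 were each called in 4, with edgeR or DESeq2 adjusted p up to 0.409 and 0.355. DESeq2 with the block called 1 member for both hairpins and 7 between the hairpins, where leaving out single libraries with the block gave 0 to 1. The cause was not tested. Some log2 differences that passed no threshold changed sign when single libraries were left out of the model with the group alone: Cyc1 ranged from -0.063 to 0.14 and Uqcrfs1 from -0.31 to 0.0096 for both hairpins, and for hairpin 1 ND6 ranged from -0.11 to 0.31, Atp5f1e from -0.17 to 0.49 and Uqcrfs1 from -0.34 to 0.0189. Ndufa4l2 between the hairpins was -0.070 with numbers 1 and 2 only and the block. Genes near 0 in numbers 3 and 4 rest on the shallower libraries numbered 1 and 2 alone.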
